A study of Homo sapiens with 9 samples.

Results

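The zinc finger genes of chromosome 19 are the protein-coding genes on that chromosome whose symbol is ZNF followed by a number. In the gene annotation used here (GENCODE release 29 on GRCh38) 246 genes met that rule, of 60230 genes in the tables. Of these, 83 lie on the short arm, 19p, and 163 on the long arm, 19q. Their RNA was followed in the lung cancer line NCI-H358, which is an established human line, and in NCI-H358-R, called H358-R below, a derivative made resistant to sotorasib, a targeted cancer drug. H358-R was made by continuous culture of the line in 250 nM sotorasib for about 2 months, as a selected population for which no cloning step is described, and was maintained in the drug. The 3 states compared were untreated, drug-sensitive parental cells, H358-R without the drug (off drug) and H358-R under 250 nM sotorasib, profiled 4 days after dosing (on drug). Each state had 3 poly(A) RNA libraries described as biological replicates. The sources used here do not give the time that off-drug cells had spent without sotorasib. They also do not say whether replicates were separate cultures, and p-values therefore reflect only library-to-library spread, some of which may be technical.

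C2H2 zinc finger proteins bind DNA through tandem fingers, each held by a zinc ion between paired cysteines and histidines. Most genes of this kind on chromosome 19 arose by repeated tandem duplication and also encode a KRAB domain, which recruits the corepressor TRIM28 and, through it, the histone methyltransferase SETDB1. Many KRAB zinc finger proteins bind families of transposable elements and keep them silent by histone H3 lysine 9 methylation. In this family ZNF91 and ZNF93 are known for binding retrotransposons.

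Translating the annotated coding sequences gave a median of 12 finger patterns per member, from 0 to 36, and a KRAB-type pattern in 186 of the 246. Members separated by less than 500 kb were joined into clusters, and 10 clusters had at least 5 members. They are called A to I and PC here. On 19p, cluster A (2.8 to 2.9 Mb) had 5 members, B (8.5 to 9.8 Mb) 13 and C (11.5 to 12.6 Mb) 25. The pericentromeric cluster PC, from ZNF101 to ZNF254 at chr19:19668796-24129961, had 37. On 19q, cluster D (34.7 to 35 Mb) had 5 members, E (36.2 to 37.8 Mb) 26, F (43.5 to 44.5 Mb) 23, G (51.6 to 53.6 Mb) 39, H (55.5 to 56.7 Mb) 16 and I (57.2 to 58.5 Mb) 43.

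Promoter sequence showed how closely the members of cluster PC are related, and 5 promoters are printed because cluster PC and ZNF841 of cluster G moved in opposite directions on drug. RefSeq promoters (GRCh38.p14, first listed start) matched 215 of the 246 members. Each line holds the 250 bases before the start on the gene's strand. Capitals mark CCGGAAG, the core recognised by ETS-family transcription factors, or its reverse complement. ZNF841 shows no capitals because its match lies 4 bases past the start, outside the printed bases. It is counted below among the members with the motif. ZNF714 has no match in the printed bases or in the longer window used below. ZNF431 is at chr19:21141790-21142039 (plus strand), ZNF714 at chr19:21081953-21082202 (plus), ZNF43 at chr19:21836183-21836432 (minus), ZNF681 at chr19:23758892-23759141 (minus) and ZNF841 at chr19:52095766-52096015 (minus).
ZNF431: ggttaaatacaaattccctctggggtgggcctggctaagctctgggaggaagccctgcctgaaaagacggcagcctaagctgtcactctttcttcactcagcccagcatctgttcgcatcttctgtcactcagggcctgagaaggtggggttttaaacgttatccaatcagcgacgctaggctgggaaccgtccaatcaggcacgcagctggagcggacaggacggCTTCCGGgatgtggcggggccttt
ZNF714: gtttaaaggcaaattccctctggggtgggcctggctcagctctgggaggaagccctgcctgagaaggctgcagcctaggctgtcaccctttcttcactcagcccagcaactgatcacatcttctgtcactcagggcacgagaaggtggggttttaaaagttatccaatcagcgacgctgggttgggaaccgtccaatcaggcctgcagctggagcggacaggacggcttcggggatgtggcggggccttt
ZNF43: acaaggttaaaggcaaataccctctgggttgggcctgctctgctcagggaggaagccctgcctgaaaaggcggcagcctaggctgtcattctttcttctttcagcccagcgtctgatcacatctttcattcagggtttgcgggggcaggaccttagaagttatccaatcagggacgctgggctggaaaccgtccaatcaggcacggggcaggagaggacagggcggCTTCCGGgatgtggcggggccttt
ZNF681: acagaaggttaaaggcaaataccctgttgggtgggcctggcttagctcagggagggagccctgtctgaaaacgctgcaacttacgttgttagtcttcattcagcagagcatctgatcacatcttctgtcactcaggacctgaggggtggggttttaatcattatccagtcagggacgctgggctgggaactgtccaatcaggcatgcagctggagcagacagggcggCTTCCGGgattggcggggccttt
ZNF841: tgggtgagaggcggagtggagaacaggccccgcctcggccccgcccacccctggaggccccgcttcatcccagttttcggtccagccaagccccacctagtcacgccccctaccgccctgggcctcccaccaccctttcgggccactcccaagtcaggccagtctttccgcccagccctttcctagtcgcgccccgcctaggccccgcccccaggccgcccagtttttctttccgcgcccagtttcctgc
The first 4 are visibly copies of each other. ZNF431 and ZNF714 were 92% identical over the 250 bases, ZNF431 and ZNF43 82.4%, and ZNF431 and ZNF681 81.6%, against 44.4% for ZNF431 and ZNF841. Over all 406 promoter pairs within cluster PC the median identity was 75.6%, and 254 pairs exceeded 70%. No other cluster had a median over 51.4%, and the median of the 20422 pairs from different clusters was 45.6%.

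The 7-base motif CCGGAAG, on either strand, was in the 300-base window (250 before to 50 after the start) of 98 of 215 members, or 45.6%, against 14.4% of the 14874 protein-coding promoters in the table. In cluster PC it was in 21 of 29 (72.4%), always within 100 bases of the start, and in cluster G in 20 of 32 (62.5%). The other motifs searched on both strands were TGANTCA, found in 6.51% of member promoters and 5.78% of all, CACGTG, in 4.19 and 8.94%, TGACGTCA, in 3.26 and 2.6%, and the 10-base palindrome of the factor NRF1, in 2.33 and 1.74%. Off drug against parental, 42 of 95 members with CCGGAAG were called higher and 10 lower (median log2 change 0.25), and 34 and 12 of 116 without it (0.16). On drug against off drug the counts were 40 and 25 with it and 43 and 22 without it, with a median of 0.15 in each. Outside cluster PC they were 24 and 25 of 76 with it (-0.01) and 35 and 22 of 108 without it (0.12). Inside cluster PC they were 16 and 0 of 19 with it (0.96) and 8 and 0 of 8 without it (0.56). On drug against parental the full counts were 54 and 12 with it (0.39) and 50 and 10 without it (0.25). Outside cluster PC these medians were 0.25 and 0.24. Of all genes tested, 28.4, 31.4 and 33.4% were called higher and 26.6, 31.2 and 32.9% lower in the 3 comparisons. Whether the shares with and without the motif differ was not tested. A match describes letters in the window and is not a measured binding site.

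Total estimated counts per library were 25.7 to 34.73 (in units of 1e6). TMM scaling factors, which correct for composition, were 1.113 to 1.124 in on-drug libraries and 0.917 to 0.972 in the others, and 24189 to 24360 genes had counts on drug against 22079 to 22957 elsewhere. Epithelial markers were abundant in every library, the 7 summing to 4000 to 4760 TPM in parental, 4150 to 4700 off drug and 2970 to 3920 on drug. They did not move together: from parental to on drug EPCAM went from 615 to 689 down to 235 to 268 TPM, while KRT7 went from 504 to 588 up to 761 to 956, and CDH1 and ELF3 were also higher. Among markers of other cell types, the 6 fibroblast genes summed to 7.98 to 10.3 TPM in parental, 5.65 to 7.2 off drug and 76.6 to 97.7 on drug, led there by LUM (59.2 to 80.6) with PDGFRA, COL1A2 and DCN at most 0.385. The 6 leukocyte genes summed to 40.4 to 44.5, 64.1 to 73.8 and 7.53 to 8.1 TPM, led in each state by CD68 (36 to 40.2, 47.5 to 56.1 and 5.7 to 6.19), with CD79A at 10.9 to 14.1 off drug and PTPRC and CD3E at most 0.0662. The 5 endothelial genes summed to 1.56 to 2.41, 4.56 to 4.92 and 3.03 to 4.46. The part of these shifts in the results below was not tested.

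Taken as a family, the members held a larger share of the RNA in each successive state. Their summed TPM, a length-scaled share of transcripts, lay between 1307 and 1523 in the parental state, 1735 and 1771 off drug, and 1822 and 2028 on drug, with no overlap. Their share of all counts was 0.249 to 0.28% in parental, 0.297 to 0.305% off drug and 0.376 to 0.411% on drug, again without overlap. Neither measure is TMM-scaled, and the median of all genes rose on the TPM scale too. On log2(TPM + 1), off drug against parental, the median change was 0.13 over all genes and 0.24 over members. On drug against off drug these medians were 0.16 and 0.23. The median member was at 3.09 to 3.72, 4.25 to 4.42 and 5.09 to 5.57 TPM. These are modest levels, and a library's precision on 1 member is limited accordingly: 3 counts correspond to 0.0776 to 0.123 CPM (counts scaled to library size with TMM). In bulk RNA, a change in cell makeup and a change in RNA per cell cannot be told apart.

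The most abundant members by TPM were ZNF226, ZNF146, ZNF677 and ZNF626, with means over the 9 libraries of 58.8, 55.7, 43.1 and 39.5. ZNF146 consists of zinc fingers with no KRAB domain. It was at 51.4, 46.4 and 40.8 TPM in parental libraries, 72.3, 78.8 and 62.7 off drug and 53.3, 46.9 and 48.9 on drug, so it was highest off drug, and parental and on-drug values overlapped. ZNF226, a KRAB zinc finger gene of cluster F, was at 66, 61 and 65.8 TPM in parental, 71, 71.7 and 87.8 off drug and 34.5, 39.1 and 32.1 on drug, where it was lowest. ZNF677, reported to be silenced by promoter methylation in some lung cancers, was at 34 to 45.7, 39.5 to 44.1 and 44.6 to 47.8 TPM, and ZNF677 passed the test in no comparison.

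For tests, 239 members passed the filter on low counts (77 of 19p and 162 of 19q). The 7 that did not were ZNF177, ZNF208, ZNF257, ZNF98, ZNF99 and ZNF728 of 19p and ZNF536 of 19q, with 65, 9, 0, 12, 21, 1 and 0 counts over the 9 libraries. Members that pass such a filter only through the state where they are high had to differ, which touches ZNF492, ZNF723, ZNF729 and ZNF781 below. A gene is called when its adjusted p (edgeR quasi-likelihood test, Benjamini-Hochberg over 17307 genes) is under 0.05. Changes are log2 fold changes of estimated counts with the standard error, n = 3 against 3.

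**Figure D1:**
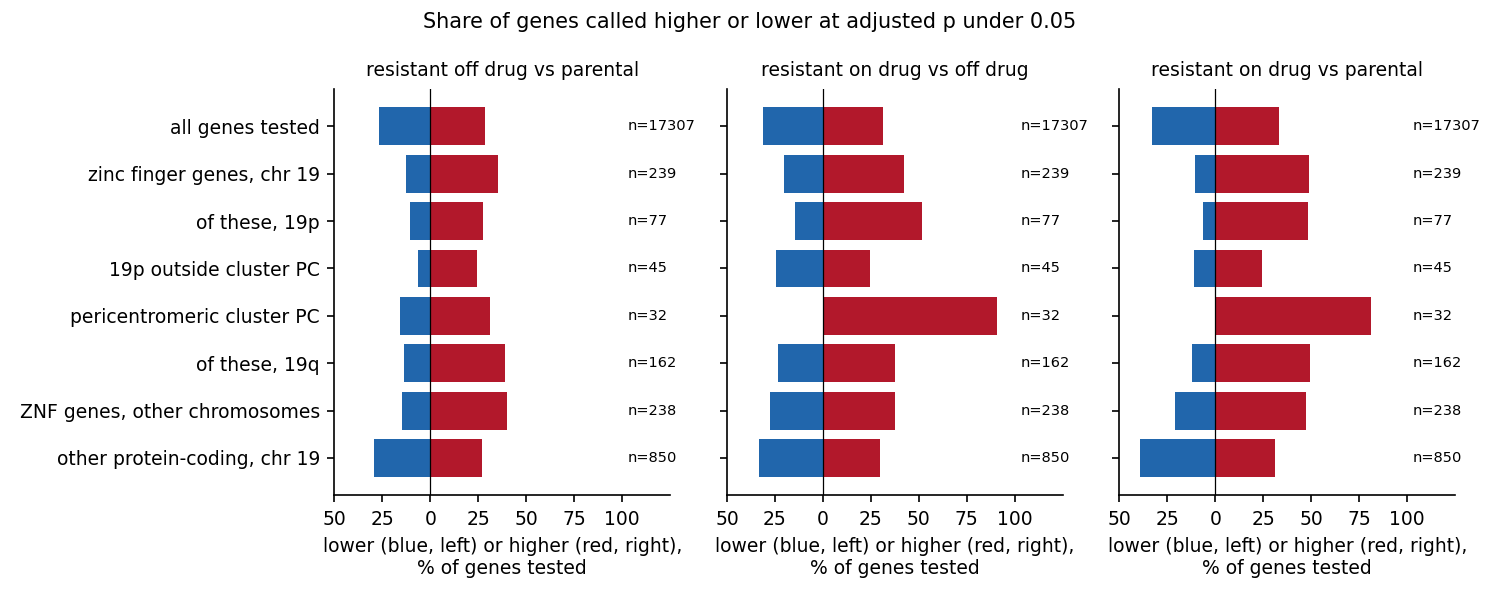
Percent of tested genes called higher (red, right) or lower (blue, left) at an adjusted p under 0.05 in each comparison, with the number tested beside each bar. In the on-drug against off-drug panel cluster PC has 29 of 32 members higher and 0 lower, while 19p outside it has 11 higher and 11 lower of 45.

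Resistant cells off drug were compared with parental cells first, to see what distinguished H358-R without current drug exposure. Of 239 members, 84 rose (35.1%) and 30 fell (12.6%), where 28.4% of all genes tested rose and 26.6% fell, 55% in all. The members' median log2 change was 0.18 and that of all genes 0. ZNF genes of other chromosomes had 95 higher and 35 lower of 238, with a median of 0.16, while the other protein-coding genes of chromosome 19 had 230 and 251 of 850 and a median of -0.03. Genes of like abundance (the members' middle 80% of average log2 CPM) were called higher in 28% and lower in 32.6%. Changes of at least 2-fold were few: 11 members rose and 1 fell that far, beside 7.49 and 9.73% of all genes.

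On 19p, 21 of 77 members rose and 8 fell (median 0.15), and on 19q 63 of 162 rose and 22 fell (median 0.20). The clusters within 19q went separate ways. In cluster E rises numbered 15 of 26 and falls 1 (median 0.53), and in cluster F 15 of 23 and 1 (median 0.51). In cluster I 17 of 43 rose and 4 fell (median 0.28). Cluster G had 5 rises and 13 falls of 39, with a median of -0.14, but its falls dropped to 2 on either TPM scale and to 6 with transcript length as an offset (described below), and its rises to 3 without parental replicate 3, off-drug replicate 2 or off-drug replicate 3. Cluster C had 3 rises and 2 falls of 25, and cluster PC 10 and 5 of 32, with 2 falls in cluster PC without parental replicate 1 and on either TPM scale.

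ZNF404 and ZNF45 are neighbours in cluster F. ZNF404 was at 5.66, 5.85 and 6.14 CPM in parental libraries, 19.6, 14.9 and 19 off drug and 42, 45.4 and 40.9 on drug. Every off-drug value exceeded every parental value, and the log2 change was 1.60 ± 0.12 (adjusted p = 1.4e-08). ZNF45 was at 8.18, 7.01 and 7.45 CPM in parental, 26.7, 22.6 and 20.8 off drug and 38.4, 38.1 and 35.2 on drug, again without overlap, with a log2 change of 1.63 ± 0.11 (adjusted p = 6.8e-09). ZNF283, also of cluster F, rose from a mean of 5.47 to 11.95 CPM, a log2 change of 1.12 ± 0.13.

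In cluster E, ZNF850 was at 9.91, 10.8 and 8.75 CPM in parental libraries and 28.2, 28.3 and 27.9 off drug, a log2 change of 1.52 ± 0.09 (adjusted p = 2.4e-09). ZNF569 was at 8.80, 7.73 and 7.97 CPM in parental and 23.7, 21.7 and 24.9 off drug, a log2 change of 1.52 ± 0.11. Off-drug replicates lay close together in both genes and far above parental. ZNF345 and ZNF829, which overlap on opposite strands, rose by 1.33 ± 0.24 and 1.07 ± 0.10. The library kit is not described as marking strand, so reads in a shared stretch cannot be assigned. Spans overlap other annotated genes for 179 of the 246 members, on the opposite strand for 131. Among these is ZNF582 below, with 3 genes on the opposite strand. ZNF781 overlaps ZFP30 on the same strand, and ZFP30 itself rose off drug by 1.18 ± 0.10. ZNF781 was at 0, 0.24 and 0.074 CPM in parental libraries, with 8 counts in all, and at 1.19, 1.27 and 2.31 off drug. Its fitted log2 change was 3.99 ± 0.54, off-drug libraries holding 133 counts. In cluster H, ZNF582, known as a gene methylated in cervical cancer, rose from 4.38, 3.53 and 4.10 to 13.9, 11.7 and 13.5 CPM, a log2 change of 1.70 ± 0.13 (adjusted p = 2.5e-08). In cluster I, ZNF530 rose by 1.21 ± 0.12.

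The falls were smaller apart from ZNF552 of cluster I. It was at 10.3, 9.86 and 10.1 CPM in parental libraries and 4.17, 3.60 and 4.2 off drug, a log2 change of -1.33 ± 0.11 (adjusted p = 7.1e-08). ZNF671 of the same cluster, likewise known as methylated in several cancers, changed by -0.78 ± 0.19, ZNF737 of cluster PC by -0.87 ± 0.12 and ZNF846 of cluster B by -0.94 ± 0.23. In cluster G, ZNF28 changed by -0.69 ± 0.11, ZNF468 by -0.65 ± 0.13, ZNF615 by -0.61 ± 0.12 and ZNF350 by -0.61 ± 0.12. ZNF350 encodes a partner of BRCA1. The calls for ZNF350, ZNF468 and ZNF615 ended when TPM values were tested instead of counts (limma on log2(TPM + 1): -0.13, -0.46 and -0.53, adjusted p = 0.49, 0.056 and 0.061). ZNF28 and ZNF468 also overlap on the same strand, and 63.3% of ZNF468's 31-base words occur in other genes, so reads may be split between copies.

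**Figure D2:**
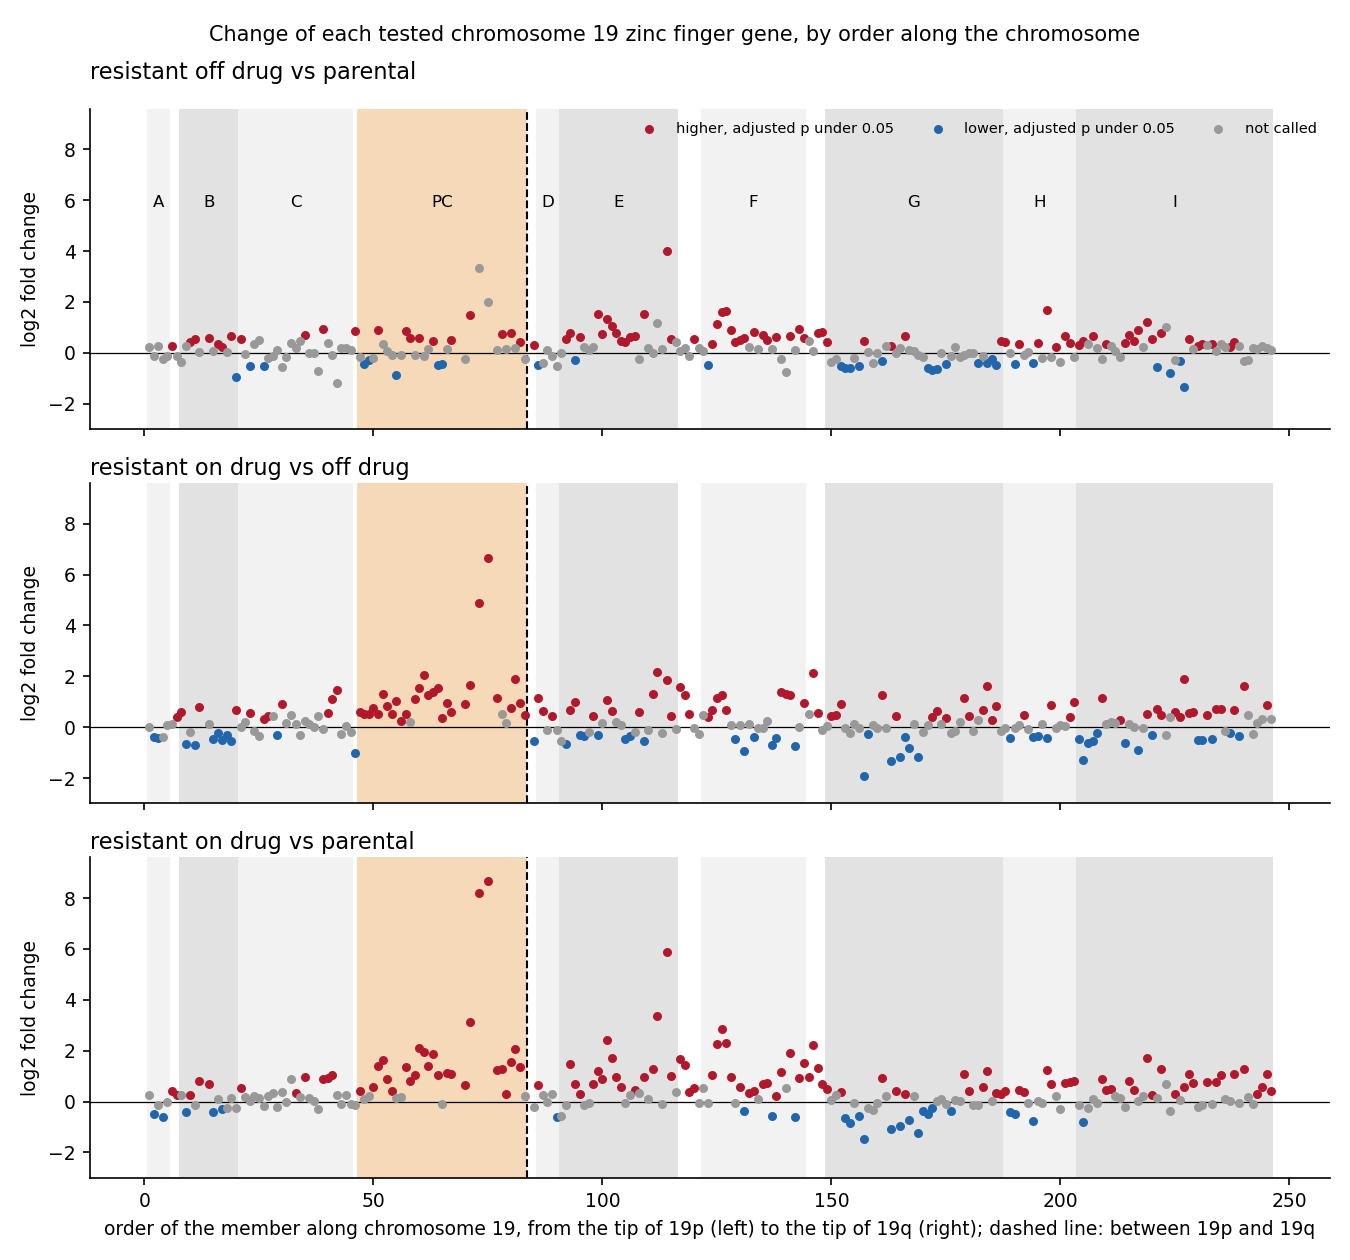
Log2 fold change of estimated counts (y axis) for each tested member in order along chromosome 19 (x axis, 246 positions), in 3 comparisons; shaded bands are clusters A to I and PC. All 32 tested members of cluster PC lie above 0 on drug against off drug, 29 of them called higher, and its 2 highest points there are ZNF492 and ZNF723, which had 3 and 1 counts off drug.

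H358-R on drug was compared with H358-R off drug to see how resistant cells differ under drug exposure. Of 239 members, 101 rose (42.3%) and 49 fell (20.5%), beside 31.4 and 31.2% of all genes tested, 62.6% in all. Genes of like abundance were called higher in 40.6% and lower in 28.5%, so the members' share of rises was near theirs. The median was 0.18, beside 0.02 for all genes and 0.12 for genes of like abundance. ZNF genes of other chromosomes had 90 rises and 66 falls of 238 (median 0.06). At least 2-fold, 34 members rose and 6 fell, beside 13.5 and 11.3% of all genes. On 19p 40 of 77 rose and 11 fell (median 0.43), and on 19q 61 of 162 rose and 38 fell (median 0.11).

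Cluster PC held most of the rises of 19p. Of its 32 tested members 29 rose, 0 fell and 3 did not pass the test: ZNF85 (0.21, adjusted p = 0.13), ZNF724 (0.52, adjusted p = 0.075) and ZNF91 (0.15, adjusted p = 0.13). The cluster's median was 0.87, and 13 members rose at least 2-fold. The 45 tested members of 19p outside cluster PC had 11 rises, 11 falls and a median of 0.05, and the 207 members outside it on both arms had 72 rises, 49 falls and a median of 0.11. The summed level of cluster PC was 200, 192 and 165 TPM in parental libraries, 214, 214 and 222 off drug and 315, 353 and 301 on drug. The states did not overlap: off-drug sums lay above parental ones, and on-drug sums above both.

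**Figure D3:**
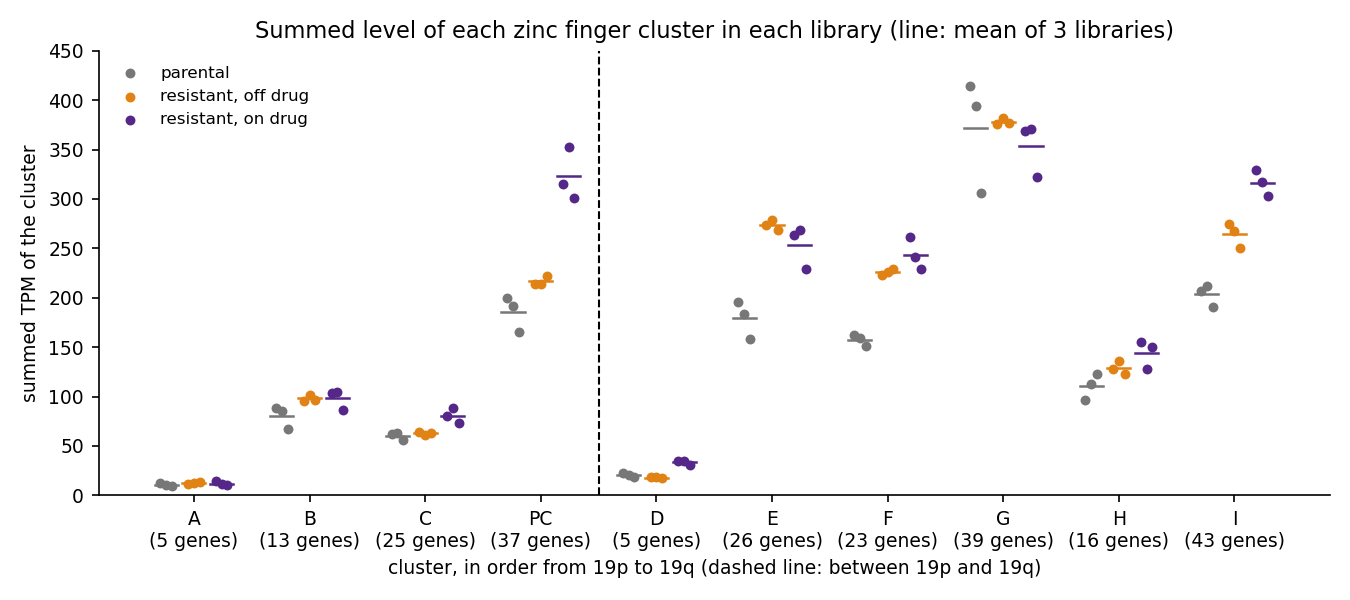
Summed TPM (y axis) of the members of each cluster in each of the 9 libraries, with lines at the mean of 3; clusters run from 19p to 19q. Cluster PC rises on drug (301 to 353 TPM against 214 to 222 off drug and 165 to 200 in parental), and clusters E and F rise between parental and off-drug cells.

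ZNF431, a KRAB zinc finger gene, had the smallest adjusted p of the cluster. It was at 19.6, 19 and 17.2 CPM in parental libraries, 16.5, 16.7 and 17.8 off drug and 72, 77 and 64 on drug. The on-drug values stood alone and the other states overlapped, with a log2 change of 2.06 ± 0.09 (adjusted p = 2.6e-11). ZNF681, near the proximal end of the cluster, was at 4.97, 4.45 and 3.72, then 4.84, 4.59 and 5.36, then 15.9, 21.3 and 18.3 CPM, a log2 change on drug of 1.90 ± 0.14 (adjusted p = 6.6e-09). ZNF714, which lies beside ZNF431, was at 10.8, 9.62 and 8.86, then 13, 15.1 and 15.6, then 41.4, 46.8 and 39.1 CPM. It had already risen off drug by 0.58 ± 0.11 and rose on drug by a further 1.54 ± 0.10 (adjusted p = 3.3e-09). ZNF493 fell off drug (-0.50 ± 0.16), a call that ended with the length offset (-0.22, adjusted p = 0.48), and rose on drug by 1.52 ± 0.15. ZNF737 likewise fell off drug and then rose by 1.02 ± 0.12, to a mean of 14.1 CPM beside 12.8 in parental cells. With the length offset ZNF737's on-drug change was -0.11 (adjusted p = 0.68), its mean transcript length having grown by 1.13 on the log2 scale. ZNF43 rose at both steps, by 0.51 ± 0.09 and 0.58 ± 0.09, and ZNF93 by 0.89 off drug and 0.50 on drug, the latter 0.10 with the length offset (adjusted p = 0.71).

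Members of cluster PC that were almost silent in the other states also appeared on drug. ZNF723 had 0 counts over the parental libraries, 1 off drug and 189 on drug, and ZNF492 had 0, 3 and 136. Against a floor of 3 counts over the parental group, on-drug CPM was at least 45.5-fold higher for ZNF723 and at least 32.7-fold higher for ZNF492. ZNF729 went from 26 to 70 to 313 counts, in every library higher on drug than off drug. All 3 were under 3 CPM on drug. ZNF208, ZNF98, ZNF99 and ZNF728, untested neighbours, had 7, 12, 18 and 1 counts on drug, and ZNF257 had 0. ZNF43, ZNF85, ZNF91, ZNF93, ZNF492, ZNF723, ZNF724 and ZNF729 fall outside the rule for named genes and were picked with their values known.

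A pair of measured facts stands beside the rise of cluster PC. The first is transcript length. The estimated counts divided by TPM give the mean length of the transcripts counted for a gene, and on drug against off drug this length changed by a median log2 of 0.25 in cluster PC, 0.24 in cluster G, 0.08 over all members and 0 over all genes. It grew by more than 0.5 in 11 of the 32 members of cluster PC and in 527 of 17307 genes. ZNF431 grew by 1.27 and ZNF714 by 0.24, while ZNF681 grew by 0.04. With these lengths as an offset, an alternative chosen after seeing the data, 18 members of cluster PC rose and ZNF85 fell (-0.43, adjusted p = 0.031), with a median of 0.50. ZNF431 then rose by 0.80 (adjusted p = 6.6e-05), ZNF681 by 1.89 and ZNF714 by 1.32. Over all members the rises went from 101 to 59. On length-scaled values (limma on log2(TPM + 1)) 19 members of cluster PC rose and 0 fell, with a median of 0.55.

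**Figure D4:**
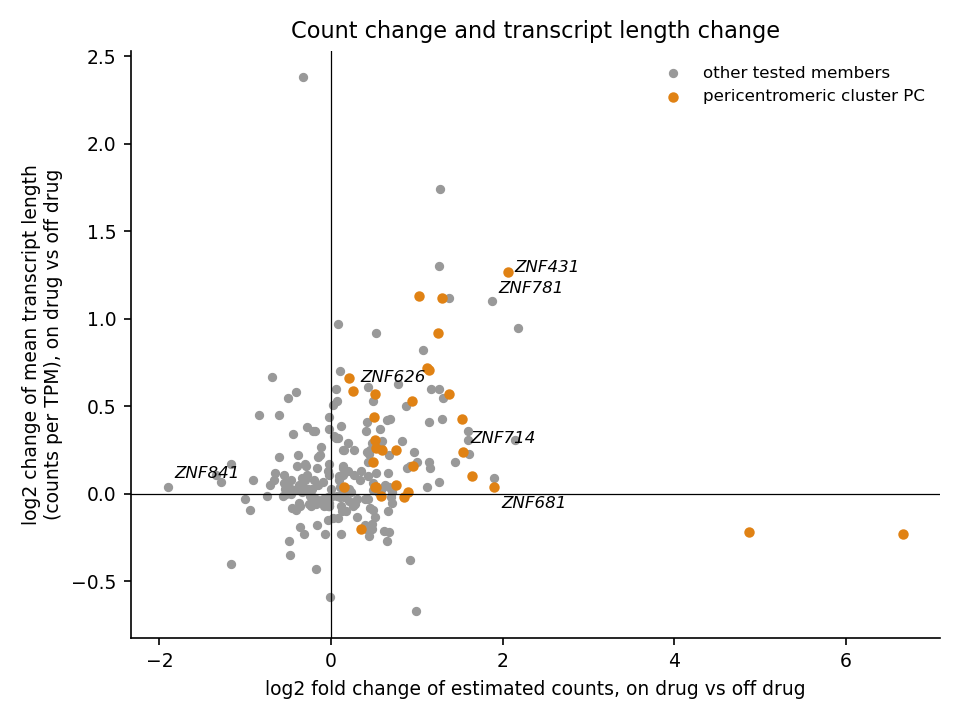
Log2 fold change of estimated counts on drug against off drug (x axis) and log2 change of mean transcript length in the same comparison (y axis) for each tested member, with cluster PC in orange. ZNF431 lies at 2.06 and 1.27, and ZNF681 at 1.90 and 0.04, so the 2 genes rose alike in counts but not in length.

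The second is the rest of the interval. No other protein-coding gene between ZNF101 and ZNF254 was tested, and of the 16 other genes tested there, 11 rose and 1 fell, with a median of 1.89. None is annotated as protein-coding, and among them were LINC00664 (2.41 ± 0.30) and IPO5P1, an importin pseudogene listed under 2 identifiers (3.34 ± 0.20 and 2.79 ± 0.32). The gene that fell was LINC00663 (-0.94 ± 0.31). Of all 3411 genes tested that do not code for protein, 996 were called higher and 631 lower (median 0.23). Other genes within cluster G, of any type, had 10 rises and 4 falls of 19 (median 0.76). In cluster F it was 10 and 2 of 18 (0.74), and in cluster E 9 and 5 of 19 (0.66). Cluster I had 11 and 6 of 26 (0.54) and cluster D 0 and 1 of 5 (0.46). Cluster B had 4 and 1 of 9 (0.41), cluster C 5 and 3 of 12 (0.37) and cluster H 7 and 3 of 16 (0.33). The part of transcript length and of the other genes of the interval in the rise was not tested beyond these values. Spans overlap other annotated genes for 33 of the 37 members of cluster PC, on the opposite strand for 30. Of the 20 tested members with at most 20% of their 31-base words shared with other genes, 18 rose and 0 fell (median 0.86).

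Outside cluster PC, rises of at least 2-fold were scattered. ZNF552 of cluster I, which had fallen off drug, was at 15.2, 15.3 and 14.3 CPM on drug, above both other states, a log2 change of 1.90 ± 0.11 (adjusted p = 4.3e-10). ZNF765 of cluster G was at 6.87, 7.12 and 7.25 CPM off drug and 20.6, 24.3 and 19.6 on drug, a log2 change of 1.60 ± 0.13. ZNF404 rose by a further 1.26 ± 0.10 and ZNF283 by 1.14 ± 0.12. ZNF546 at 40 Mb rose by 1.60 ± 0.24, ZNF302 of cluster D by 1.14 ± 0.10 and ZNF443 of cluster C by 1.12 ± 0.19, of whose 31-base words 56.4% occur in other genes. ZNF781 rose by 1.87 ± 0.30, and its call ended with the length offset (0.83, adjusted p = 0.15) and with limma on log2(TPM + 0.1) (1.06, adjusted p = 0.25).

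By the rule for named genes, ZNF841 and ZNF880 of cluster G fell most. ZNF805 of cluster I came next (-1.28), then ZNF83 of cluster G. ZNF841 was at 40.3, 37.3 and 28.3 CPM in parental libraries, 45.9, 49.5 and 49.2 off drug and 14.4, 13.4 and 10.8 on drug. The on-drug values lay below all others, with a log2 change against off drug of -1.90 ± 0.13 (adjusted p = 2.8e-09) and a length change of 0.04. ZNF880 was at 20.8, 20.4 and 19.2, then 23.7, 23.9 and 24.6, then 8.19, 11 and 9.19 CPM, a log2 change of -1.35 ± 0.11. ZNF83 was at 49.3, 47.8 and 41.3, then 43.7, 42.3 and 44.5, then 21.2, 20.7 and 16.5 CPM, a log2 change of -1.16 ± 0.10. All 3 were lowest on drug. Off drug ZNF841 and ZNF880 had risen by 0.45 and 0.26 (ZNF880 lost this call with the length offset, 0.19, adjusted p = 0.2), while ZNF83 was at -0.09 (adjusted p = 0.49). ZNF808 of the same cluster changed by -0.84 ± 0.14. The cluster as a whole had 14 rises and 7 falls of 39 on drug, so neighbours of 1 cluster moved both ways. With the length offset the balance was 6 rises and 10 falls, and on log2(TPM + 1) it was 7 and 5.

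**Figure D5:**
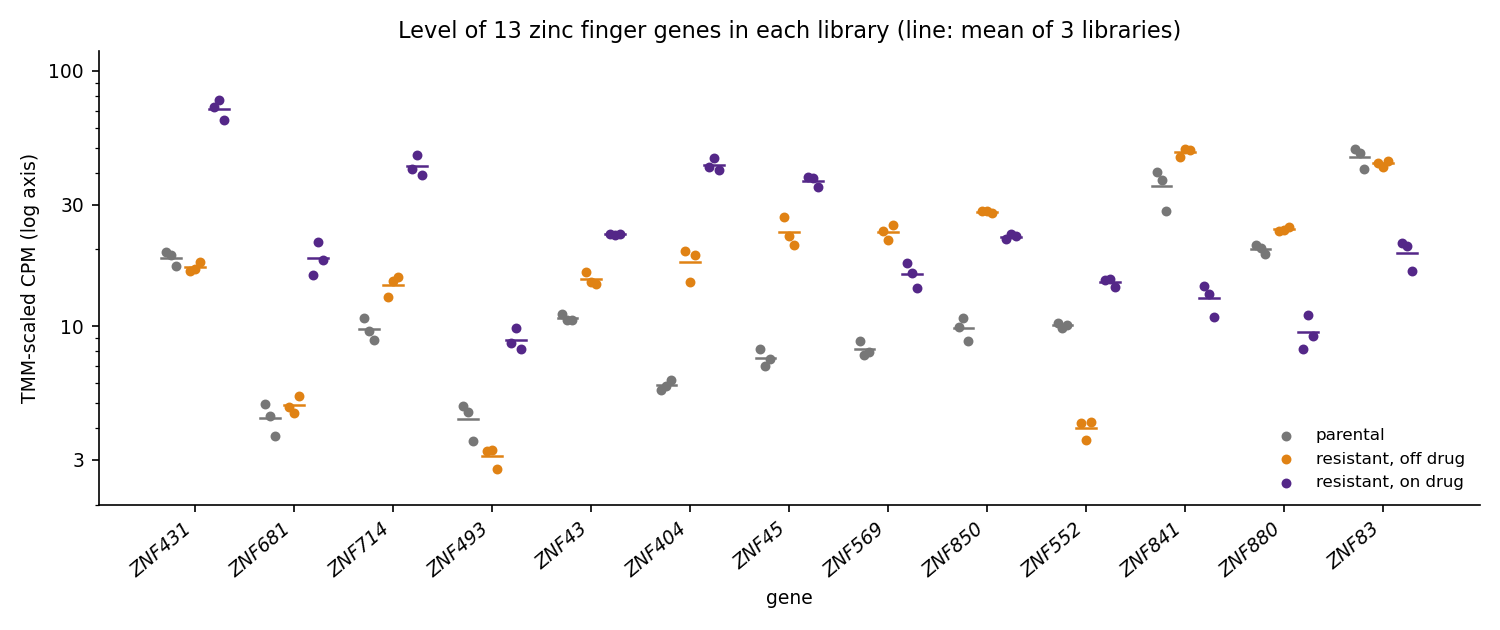
TMM-scaled CPM (log axis) of 13 named members in each library of the 3 states, with lines at the mean of 3. ZNF431, ZNF681 and ZNF714 are highest on drug (ZNF431 64 to 77 CPM against 16.5 to 19.6), ZNF404 climbs at both steps, and ZNF841, ZNF880 and ZNF83 fall on drug.

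Other falls on drug returned genes towards or below their parental level. ZNF550 of cluster I was at 23.6, 21 and 19.5 CPM in parental libraries, 40.9, 39.1 and 41.1 off drug and 21.2, 22.3 and 20.9 on drug. Its rise off drug was 0.91 ± 0.09 and its fall on drug 0.91 ± 0.09 on the log2 scale. ZNF333, a 19p gene in no cluster, rose by 0.86 ± 0.15 off drug, from 4.48, 3.93 and 4.54 to 7.82, 8.52 and 7.22 CPM, and was at 4.32, 4.25 and 3.16 on drug (adjusted p = 2.5e-05), and ZNF222 of cluster F rose by 0.58 ± 0.14 and changed by -0.94 ± 0.14. ZNF805 of cluster I rose by 0.48 ± 0.11 (0.26 with the length offset, adjusted p = 0.17) and then changed by -1.28 ± 0.11, with -0.80 ± 0.12 against parental. ZNF562, the member of cluster B with the smallest adjusted p, rose by 0.67 ± 0.08 and changed by -0.53 ± 0.07. In cluster B 7 of 12 members fell on drug and 3 rose, with a median of -0.27, and in cluster A 2 of 5 fell and 0 rose.

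Resistant cells on drug were last compared with parental cells. Of 239 members, 117 rose (49%) and 25 fell (10.5%), beside 33.4 and 32.9% of all genes, 66.3% in all. Genes of like abundance were called higher in 39.8% and lower in 31.2%, and ZNF genes of other chromosomes had 112 rises and 50 falls of 238 (median 0.24). The members' median was 0.30, that of all genes 0.02 and that of genes of like abundance 0.10. At least 2-fold, 48 members rose and 3 fell, beside 13.4 and 13.9% of all genes. Of the 48, 19 lie in cluster PC. On 19p 37 of 77 rose and 5 fell (median 0.27), and on 19q 80 of 162 rose and 20 fell (median 0.30). Cluster PC had 26 rises and 0 falls (median 1.10, also with ZNF492 and ZNF723 set at their bounds), cluster E 16 and 0 (median 0.62), cluster F 15 and 3 (0.59), cluster I 21 and 1 (0.26) and cluster G 11 and 12 (0). With the length offset cluster PC had 18 rises and 3 falls, and cluster G 3 and 12; without on-drug replicate 2 cluster G had 7 rises. The 45 members of 19p outside cluster PC had 11 rises and 5 falls (median 0.14). Scaling by library size only made 93.9% of member calls higher in place of 82.4%, and on drug against off drug 89% in place of 67.3%; over all genes these shares went from 50.4 to 64.3% and from 50.1 to 68.5%. With limma on log2(TPM + 1), higher calls were 86.7, 80.4 and 90% of member calls in the 3 comparisons (73.7, 67.3 and 82.4% in the edgeR fit).

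The largest rises by the rule for named genes were ZNF781 (5.87 ± 0.47, from 8 parental counts), ZNF404 (2.86 ± 0.11, adjusted p = 4.8e-12), ZNF345 (2.40 ± 0.22), ZNF45 (2.30 ± 0.11), ZNF283 (2.26 ± 0.13), ZNF714 (2.12 ± 0.11), ZNF681 (2.07 ± 0.14) and ZNF431 (1.93 ± 0.09). They come from clusters E, F and PC, and their order depends on the processing. ZNF781 ranged from 2.48 (log2(TPM + 1)) to 7.25 (without parental replicate 2), ZNF345 was at 1.39 on log2(TPM + 1), and ZNF283 and ZNF431 were at 1.58 and 0.72 with the length offset. The largest falls were ZNF841 (-1.45 ± 0.13), ZNF83 (-1.25 ± 0.10), ZNF880 (-1.09 ± 0.11), ZNF615 (-0.83 ± 0.12), ZNF805 (-0.80 ± 0.12), ZNF581 (-0.78 ± 0.10), ZNF808 (-0.74 ± 0.14) and ZNF350 (-0.63 ± 0.12). Of these 8, 6 lie in cluster G. On TPM, ZNF350 lost its call (-0.33, adjusted p = 0.071, limma on log2(TPM + 1)), and with log2(TPM + 0.1) so did ZNF615 (adjusted p = 0.068) and ZNF808 (adjusted p = 0.054). In cluster A the smallest adjusted p was that of ZNF57 (-0.60 ± 0.16), which lost its call on TPM (-0.10, adjusted p = 0.65, limma on log2(TPM + 1)), with library size only (adjusted p = 0.053) and with the length offset (adjusted p = 0.14).

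Following each of the 239 tested members through the states, 25 rose off drug, rose again on drug and ended above parental. Another 41 were not called off drug against parental but were called higher on drug against both other states. A further 31 rose off drug and fell on drug. Of these, 10 lie in cluster I, 6 in cluster E, 4 in cluster F, 2 in cluster H and 0 in cluster PC. The rest lie elsewhere, among them ZNF562 of cluster B, ZNF841 and ZNF880 of cluster G, and ZNF333. Another 22 fell off drug and rose on drug, 1 fell at each step, and 42 passed no test. Steps share the off-drug libraries, so noise there moves both.

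The number of finger patterns had a Pearson correlation with the log2 change of 0.08, -0.04 and 0.01 over the 239 members in the 3 comparisons, given as a description since the members share ancestry and libraries. On drug against off drug, 82 of 182 members with the KRAB-type pattern rose and 37 fell (median 0.23), and 19 of 57 without it rose and 12 fell (median 0.05). Against parental cells on drug the shares called higher were 48.9 and 49.1%.

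The corepressors that KRAB domains recruit were examined with a list of 28 genes. Off drug against parental 17 rose and 2 fell (median 0.45), on drug against off drug 14 rose and 3 fell (0.20), and on drug against parental 19 rose and 1 fell (0.42). Of all genes tested, 28.4, 31.4 and 33.4% were higher and 26.6, 31.2 and 32.9% lower in the same comparisons. TRIM28, the scaffold that KRAB domains bind, was at 193, 221 and 220 CPM in parental libraries, 297, 288 and 285 off drug and 382, 343 and 423 on drug. It climbed at both steps, by 0.46 ± 0.09 and 0.40 ± 0.09. SETDB1, which methylates histone H3 at lysine 9, rose off drug by 0.67 ± 0.09 and then changed by -0.17 ± 0.08 (adjusted p = 0.092). UHRF1 and DNMT1, which maintain DNA methylation, rose by 1.56 ± 0.11 and 1.40 ± 0.10 off drug, and UHRF1 by a further 1.13 ± 0.10 on drug. MORC3 fell on drug by 0.95 ± 0.10.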

How the data were processed

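The authors deposited estimated counts (fractional values) and TPM for every gene. The submitters' processing notes name Salmon 0.14.1, FastQC 0.12.1, bcl2fastq 2.17 and GRCh38.p13 without saying how each was used. No annotation release or strand setting is given in the sources used here. Per the labels' protocols, libraries were made from oligo(dT)-selected RNA with the NEBNext Ultra II RNA kit.

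The design had assumed plain counts, so estimated counts were rounded to whole numbers. All 9 libraries entered 1 fit in edgeR 4.0.16 (R 4.3.3): a mean per state, TMM scaling, filterByExpr (minimum count 10, total 15) and the quasi-likelihood test with 6 residual degrees of freedom. The common BCV (biological coefficient of variation) came to 0.0946. Standard errors are the absolute log2 change over the square root of F. Alternatives were RLE, upper-quartile and library-size scaling, other filters, DESeq2 1.42.0, limma 3.58.1 with voom or on log2(TPM + pseudocount) with pseudocounts 1 and 0.1, 2-group fits, a replicate block, each library left out, and a transcript length offset. Total counts (in units of 1e6) were 25.7 to 34.73 per library. Replicate pairs all differed beyond sampling noise (chi-square per degree of freedom at least 5.114), so none was merged.

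Positions and coding sequences are from GENCODE release 29 (GRCh38), and 57972 of 60230 genes matched by identifier. The arms were divided at 26 Mb, inside the gap between genes from 24129961 to 29205321. Zinc finger and KRAB patterns were found by pattern search and may miss divergent copies. Promoter identity is 1 minus the edit distance (edlib) over 250 bases.

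The members, lists and rule for named genes were chosen with earlier results of these data known. For each comparison it named 8 members that rose most and 8 that fell most, if called, non-overlapping between states and with an average log2 CPM from 1 upwards. It added the 4 members highest in TPM, per cluster of at least 5 members the called member with the smallest adjusted p, TRIM28, SETDB1 and 2 called corepressors with the largest change. The text names a selection.

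The steps were tested on simulated data. Off drug against parental (16459 genes), the test found 70.1, 77.6 and 98.5% of known 1.5-, 2- and 4-fold differences, with 5.7% false calls. On drug against off drug (16623 genes) the shares were 62.7, 82.1 and 97% with 6.9%, and on drug against parental (16773 genes) 65.7, 88.1 and 95.5% with 8.3%. Only 67, 67 and 66 genes were changed at these folds in each comparison. In the data 55, 62.6 and 66.3% of genes tested were called, a far larger share. These rates therefore cannot be carried over to the real comparisons. Every false-call share was above that set by the 0.05 threshold.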

Additional observations from a re-analysis of the deposited data

How the results depend on the processing

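Counts of called members, in all and by arm, kept within 1.5 times under the alternatives except as follows. Off drug against parental, limma on log2(TPM + 1) and log2(TPM + 0.1) each gave 11 members lower (30 in the edgeR fit), of which 3 and 4 on 19p and 8 and 7 on 19q. On drug against off drug, members called lower numbered 31 with upper-quartile scaling (6 on 19p, 25 on 19q), 17 with library size only (5 and 12) and 20 on either TPM scale (4 and 16), and the length offset gave 59 higher (23 and 36). On drug against parental, members called lower numbered 10 with library size only (0 and 10), 14 on log2(TPM + 1) (1 and 13) and 10 on log2(TPM + 0.1) (0 and 10). Leaving out each library gave 70 to 80 higher and 23 to 38 lower off drug against parental, 92 to 102 and 38 to 51 on drug against off drug, and 107 to 116 and 18 to 29 on drug against parental. On 19p those ranges were 17 to 20 and 6 to 10, 34 to 41 and 7 to 13, and 35 to 38 and 4 to 8, with 7 lower without on-drug replicate 3 (on against off) and 8 without on-drug replicate 2 (on against parental). On 19q they were 53 to 61 and 17 to 28, 55 to 62 and 30 to 40, and 71 to 79 and 14 to 22.

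Scaling moved all genes together. The median of all genes moved to 0.27 and 0.24 with library size only, 0.15 with upper-quartile scaling on drug against off drug, and up to 0.32 on TPM, and the members' median stayed 0.07 to 0.33 above it in every alternative. Of member calls, 73.7, 67.3 and 82.4% were higher in the 3 comparisons, and 66.4, 89 and 93.9% with library size only. Upper-quartile scaling gave 63, 79.5 and 85.4%, log2(TPM + 1) 86.7, 80.4 and 90%, and the length offset 73.9, 60.2 and 75%. Cluster PC on drug against off drug had 32 higher with library size only, 19 on log2(TPM + 1), 18 with the length offset and 27 to 30 with a library left out.

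Signs turned for cluster G's median off drug against parental (0.02 and 0.03 on the TPM scales), its median on drug against off drug (-0.12, length offset), and cluster E's (-0.06 without on-drug replicate 2, -0.02 with the length offset). ZNF626 on drug against off drug turned to -0.10 on both TPM scales and -0.30 with the length offset, and against parental to -0.48 (adjusted p = 0.016). Of 1364 values of named members under the alternatives, 1337 were counted as unchanged. Another 20 lost their call, 3 gained a call and 4 were counted as turned. The unchanged values include changes of sign in members that were not called. ZNF677 off drug against parental went from 0.005 to -0.09 with the length offset. All 21 of its alternatives there were counted as unchanged, so the 4 do not cover every change of sign. The causes were not tested.

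With the replicate number as a block, 84 members rose and 32 fell off drug against parental, 101 and 47 on drug against off drug, and 116 and 26 on drug against parental. Of 9 same-numbered pairs 1 had a correlation of deviations over 0.1 (range -0.034 to 0.135). Low values of this kind cannot show whether same-numbered samples shared more than a number. Depth limits members near the floor of 3 counts, such as ZNF492, ZNF723 and ZNF781.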
